A study of Mus musculus with 24 samples.

Results

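FOXP1 binding was mapped in wild-type mouse cortex at E18.5 by chromatin immunoprecipitation with a FOXP1 antibody followed by sequencing. The list of peaks on chromosomes 1 to 19 held 24526 peaks, out of 24890 in the deposited list for this stage and antibody, and out of 315145 in the 6 lists of the series. There were 2 ChIP libraries and 2 input libraries of sheared chromatin without antibody. The methods describe merging of replicates before peak calling. The deposited list is filed under the first ChIP library and was taken here as the merged one, so each peak has 1 fold enrichment and no spread between replicates. The tissue was whole cortex rather than sorted cells, and a peak does not say which cell type carried the binding. The methods describe a blocking peptide as the control for the FOXP1 antibody, which was not analysed here.

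FOXP1 is a transcription factor of the forkhead family, whose winged-helix domain contacts DNA at sequences related to TGTTTAC. It is known to form dimers with FOXP2 and FOXP4, to repress or activate transcription, and to work with the NuRD chromatin remodelling complex. In the developing brain it is known for roles in projection neurons of the cortex and in neurons of the striatum that carry dopamine receptors. FOXP3, a family member of the immune system, is known to bind microsatellites rich in T and G.

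Examples of 3 kinds of sequence found under strong peaks are printed because the later sections return to them. Of the 25 strongest peaks 7 held the letters CACGTG within 200 bp and 7 a run of AAC repeats, and others, such as those at Drd1, Cwc22 and Foxp2, held neither. All are from the RefSeq copy of GRCm38, plus strand, and cover 200 bp around the summit (the base with most reads) unless stated. The first kind held copies of CACGTG (capitals), the E-box letters known as a target of helix-loop-helix leucine zipper factors. The examples are from promoters. The Lamp1 example (chr8:13159012-13159160) and the Mfsd1 example (chr3:67582619-67582740) stop at the last base before the transcription start site.
Lamp1: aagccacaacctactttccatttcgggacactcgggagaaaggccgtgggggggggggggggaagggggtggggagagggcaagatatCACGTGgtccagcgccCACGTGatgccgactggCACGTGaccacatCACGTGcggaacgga
Mfsd1: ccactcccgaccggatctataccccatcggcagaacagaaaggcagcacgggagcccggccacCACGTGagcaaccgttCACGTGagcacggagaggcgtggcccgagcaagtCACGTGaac
The second kind consisted of AAC repeats, or GTT on the other strand, with runs of at least 12 bp in capitals. The examples are named by the nearest coding gene and lie at chr6:47650937-47651136 (Ezh2), chr16:50841674-50841873 (Ccdc54), chr14:107858498-107858697 (Slitrk1) and chr15:99185687-99185886 (Kcnh3). A summit in a Tenm2 intron (chr11:36209934-36210133) held 26 AAC triplets that were interrupted too often to make a run of 12 bp.
Ezh2: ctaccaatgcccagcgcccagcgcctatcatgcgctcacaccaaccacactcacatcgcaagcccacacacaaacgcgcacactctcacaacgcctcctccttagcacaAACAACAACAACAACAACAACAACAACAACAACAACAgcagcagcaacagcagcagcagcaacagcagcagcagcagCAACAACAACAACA
Ccdc54: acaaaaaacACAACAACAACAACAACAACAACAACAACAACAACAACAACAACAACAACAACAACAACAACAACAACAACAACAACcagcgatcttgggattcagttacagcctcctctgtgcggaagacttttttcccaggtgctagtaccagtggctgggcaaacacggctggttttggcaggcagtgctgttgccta
Slitrk1: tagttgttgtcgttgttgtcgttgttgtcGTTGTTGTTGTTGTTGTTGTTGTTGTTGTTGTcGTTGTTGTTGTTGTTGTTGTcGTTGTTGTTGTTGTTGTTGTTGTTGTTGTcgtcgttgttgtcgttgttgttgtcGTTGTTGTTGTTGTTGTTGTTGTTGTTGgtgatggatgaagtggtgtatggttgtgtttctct
Kcnh3: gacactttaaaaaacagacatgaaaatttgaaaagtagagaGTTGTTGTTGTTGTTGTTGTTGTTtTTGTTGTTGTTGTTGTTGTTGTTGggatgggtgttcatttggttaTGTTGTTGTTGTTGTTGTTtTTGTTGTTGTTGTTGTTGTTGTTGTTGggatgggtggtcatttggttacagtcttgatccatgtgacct
Tenm2: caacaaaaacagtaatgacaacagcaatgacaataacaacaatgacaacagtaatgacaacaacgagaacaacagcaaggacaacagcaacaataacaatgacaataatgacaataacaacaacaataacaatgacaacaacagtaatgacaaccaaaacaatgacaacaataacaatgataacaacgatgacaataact
The third kind, shown for the motif FOXP1 is known for and not because it was frequent, held the forkhead heptamer TGTTTAC or its reverse complement GTAAACA (capitals), inside repeats of other units. The Cacng4 intron (chr11:107784287-107784486) held 1 copy and the Dock2 intron (chr11:34681814-34682013) held 5.
Cacng4: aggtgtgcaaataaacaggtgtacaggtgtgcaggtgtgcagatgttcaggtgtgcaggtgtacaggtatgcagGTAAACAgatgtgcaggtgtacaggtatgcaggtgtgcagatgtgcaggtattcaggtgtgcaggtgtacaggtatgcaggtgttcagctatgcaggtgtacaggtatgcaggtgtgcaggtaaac
Dock2: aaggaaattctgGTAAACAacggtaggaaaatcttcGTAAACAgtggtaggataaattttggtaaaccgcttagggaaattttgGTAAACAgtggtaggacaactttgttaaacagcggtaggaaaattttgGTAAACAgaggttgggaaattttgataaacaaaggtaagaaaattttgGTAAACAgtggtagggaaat

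Fold enrichment is the number of reads at the summit over a constant genome-wide background, both with 1 added by the peak caller. The pairs of fold enrichment and p-value corresponded to a background of 5.01 ChIP reads at any point, 46.9 M ChIP reads and 26.3 M input reads (M, mega). One fixed background gave nearly all value pairs to within 0.01 on the −log10 scale, and a whole number of reads at the summit of every peak to within 0.05. Since that background is the same at every position, input signal at a site did not enter the fold enrichment of its peak. The weakest peak rested on 20 reads at its summit and the strongest on 400 reads. The 95% Poisson intervals given with single peaks, and the 95% Wilson intervals given with shares, cover counting error only.

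Peaks at promoters made up the majority of the list and were the stronger ones. A peak was called promoter when it overlapped the 2000 bp upstream of any transcription start site of GENCODE vM21, and other peaks were classed by their summit. By this rule 13587 peaks (55.4%, interval 54.8 to 56) were at promoters, against 6.41% of the bases of these chromosomes. Introns held 5013 peaks (20.4%, against 40.2% of bases), intergenic sequence 4880 (19.9%, against 49.1%) and exons 1046 (4.26%, against 4.29%). These classes take out every peak that touches a promoter, so their shares are not like for like with bases. Counted by summit alone, 45.9% of summits were in promoters, 12% in exons, 22% in introns and 20.1% between genes, or 73.3, 28.6, 5.6 and 4.19 summits per Mb against 10.2 overall. The median fold enrichment was 7.77 at promoters (quartiles 5.41 and 9.98), 4.68 in introns, 4.68 in exons and 4.82 between genes. Promoter peaks were also wider, with a median of 717 bp against 305 bp in introns and 314 bp between genes. In reads, the median promoter summit held 51 and the median summit outside promoters 30.

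**Figure D1:**
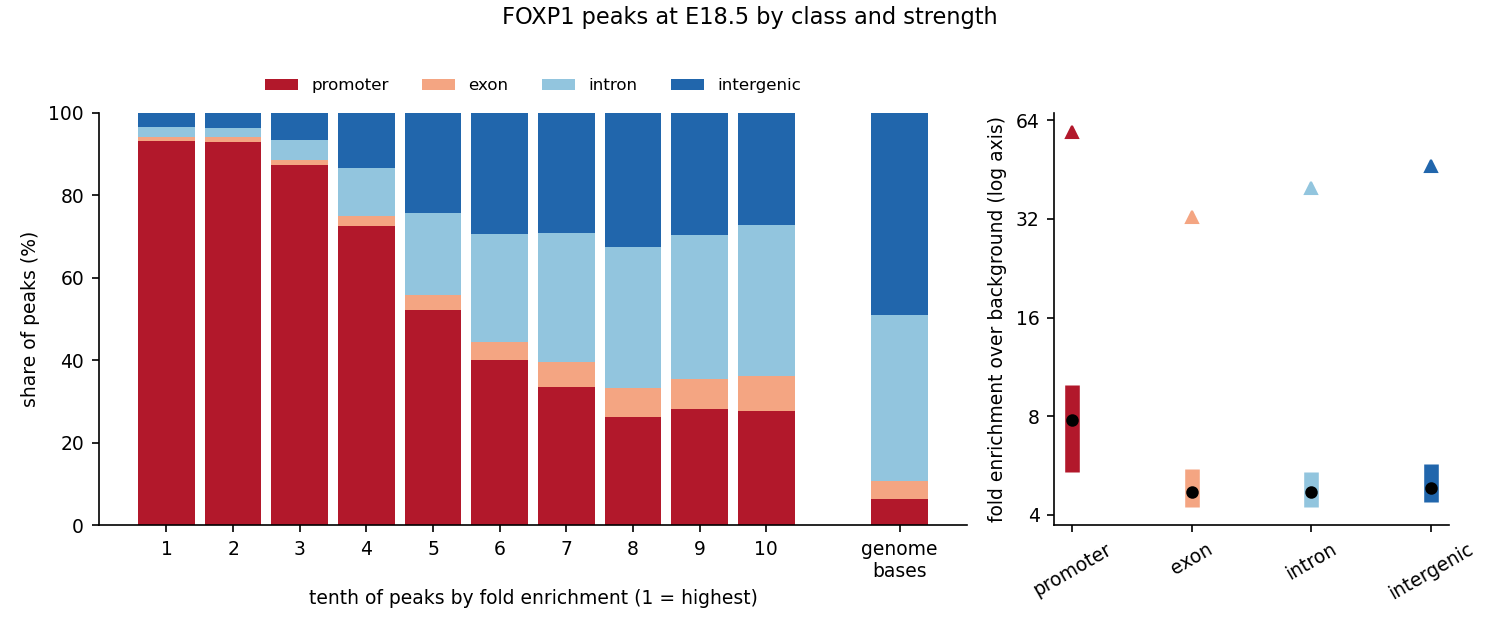
Left, share of peaks (%) in each class for 10 equal groups of the list ordered by fold enrichment, with the share of genome bases at the right. Right, fold enrichment (log axis) by class, where bars span the quartiles, dots are medians and triangles are maxima. Promoters hold 93.2% of the strongest group and 27.8% of the weakest, yet the maxima of the 4 classes lie between 32.3 and 59.1.

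The share of promoter peaks fell from 93.2% in the strongest of 10 equal groups of the list to 26.2% in the eighth and 27.8% in the weakest. At promoters the summits sat close to the start site. Their median distance to a transcription start site was 79 bp, and 58.3% lay within 100 bp. The upstream side held 57.3% of them, a share that the promoter rule bears on because it takes upstream sequence only, and over all peaks 49.7% of summits were upstream and 49.9% downstream of the nearest start site. Outside promoters the median distance to a start site was 11201 bp, or 21969 bp to the start site of a coding gene, and 2135 peaks (19.5%) were more than 100 kb from one. Median GC content in 500 bp around the summit was 63.8% at promoters, 58.0% in exons, 48.2% in introns and 47.2% between genes. The observed over expected CpG ratio had medians of 0.794, 0.572, 0.286 and 0.298 in the same order of classes.

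Among 20807 autosomal protein-coding genes, 11789 had a promoter peak, a share of 56.7% that serves as background for every gene list given later. Genes with a promoter peak had CpG-rich starts, with a median CpG ratio of 0.782 against 0.252 for the 9018 genes without. Ordered by that ratio, the share of genes with a peak ran from 0.296% in the lowest bin to 96.5% in the highest bin. A promoter peak touched the promoter of 1 coding gene in 11007 cases, of 2 in 1447 and of none in 1068. Bidirectional promoter lncRNAs were bound at 82.1%, antisense RNAs at 21.9%, lincRNAs at 12.4% and processed pseudogenes at 1.29%. Genes nearest to at least 1 peak outside promoters numbered 5449, or 26.2% of coding genes.

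The 25 strongest peaks comprised 13 at promoters, 4 in exons, 2 in introns and 6 between genes. The strongest was at Drd1, the D1 dopamine receptor of striatal projection neurons and deep cortical neurons, at chr13:54053741-54056017. Its fold enrichment was 59.1 from 400 reads, and its summit lay 433 bp downstream of the start site in the 5′ untranslated part of an exon. A summit of 400 reads equals 1 read on each strand at each of the 200 positions whose extended reads can cover it, and both mitochondrial peaks had the same value. No other autosomal peak reached it. If that number is a ceiling, the fold is a lower bound, so no interval and no ratio to other lists is given for it. The CpG ratio around the Drd1 summit was 0.20, against the promoter median of 0.794. Drd1 also had a peak in the other 5 lists of the series. There its fold was 6.20 for FOXP1 at E15.5, 2.77 and 4.49 for ARID1B at E15.5 and E18.5, and 4.00 and 4.16 for TCF4. The sample titles say TCF4 where the methods describe an antibody against TCF7L2. TCF4 in the names of these lists therefore stands for TCF7L2, not for the helix-loop-helix factor TCF4.

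The promoters that followed belonged to genes of basic cell functions. Lamp1, a glycoprotein of the lysosomal membrane, had a fold of 52.8 (47.5 to 58.5), and Mfsd1, a lysosomal transporter, 47.1 (42.1 to 52.5). Amdhd2, an enzyme of amino sugar metabolism, reached 42.2, and Cwc22, a splicing factor, 35.4. The GTPase-activating protein gene Arhgap11a had 30 and Commd4, of the COMMD family of endosomal sorting, 29.8. Rrp15, a factor of ribosomal RNA processing, had 28.2. Dvl2, which relays Wnt signals from Frizzled receptors, had 27.3, and the tRNA methyltransferase gene Trmo and the WASH complex gene Washc2 each had 26.6.

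CACGTG was present at some of these summits, and was chosen after sequences of the strongest peaks had been seen. The 6 letters occurred 4 times in 200 bp at Lamp1, 5 at Mfsd1, 3 each at Amdhd2 and Dvl2, and 2 at Washc2. The summits at Cwc22, Arhgap11a, Commd4, Rrp15 and Trmo held none. Among the 25 strongest promoter peaks 10 held at least 1 copy (40%, interval 23.4 to 59.3), against 2.00% of flanks lying 400 to 600 bp away on both sides. The share was 34% in the strongest 100 and 15% in the strongest 500. In 5 equal groups of promoter peaks from strong to weak it was 10.3%, 7.73%, 6.95%, 5.59% and 4.86%, with flanks between 3.40% and 3.94%. Over all promoter summits it was 7.09%, against 2.55% of all 200 bp tiles in promoters. The letters are a match and not evidence of which protein was bound.

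Among the 25 strongest peaks, 12 lay outside promoters. The peak 55.7 kb from the start of Ezh2, which encodes the methyltransferase of Polycomb complex 2, covered chr6:47647709-47651680 with a fold of 46.5 (41.5 to 51.9). The next, chr16:50841297-50842212, lay 250.6 kb from Ccdc54 and had a fold of 45.7. A peak 1.06 Mb from Slitrk1, a synaptic adhesion gene, had 30.7. Others between genes were nearest to the milk fat globule gene Btn1a1 (30.1), the nuclear transport GTPase Ran (27.5) and the kinesin Kif2a (26.6). In introns the strongest was in Cacng4, a subunit that regulates AMPA receptors (39.9), then Tenm2, a teneurin of synaptic contacts (30.4). The next intronic summits were in Spats2 near the potassium channel gene Kcnh3 (25.6), near the pseudouridine synthase Rpusd4 (25.4) and in Lect2 (23.4). Further ones were in a noncoding gene 50.7 kb from Nr4a2, a nuclear receptor of dopamine neurons and subplate (22.5), in Lsamp, an adhesion gene of limbic neurons (20.9), and in Htr2a, a serotonin receptor (16.9). Intergenic peaks of the same rank were nearest to the splicing gene Cdc5l (25.1), the Wnt target Axin2 (18.51) and the planar polarity gene Prickle2 (18.4). Nearest genes are given for position only, since contact with a promoter was not measured.

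Runs of AAC or GTT of at least 12 bp (4 units) were present in 200 bp at 947 of 10939 summits outside promoters, or 8.66% (8.15 to 9.20). Flanks of the same peaks held one at 0.567% (0.476 to 0.675) and all 200 bp tiles outside promoters at 0.480%. Promoter summits held one at 0.508%, against 0.342% of their flanks. The share rose with strength. It was 14 of the strongest 25 outside promoters (56%), 48% of the strongest 100 (38.5 to 57.7) and 34.6% of the strongest 500. In 5 equal groups from strong to weak the shares were 21.6%, 11.4%, 5.53%, 3.38% and 1.37%, while their flanks stayed between 0.526% and 0.663%. Of the named sets, 12 of the 15 strongest intergenic and 9 of the 15 strongest intronic peaks had a run. The AAC repeat was chosen after sequences of the strongest peaks had been seen, so counts among the strongest peaks are description only. The median fold of peaks outside promoters was 5.86 with a run and 4.68 without.

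Of 49 repeat classes with units of 1 to 4 bp, 4 had an interval at summits outside promoters that lay above that of the flanks. Besides AAC these were AGC runs, at 0.823% against 0.219%, AGCC runs, at 0.274% against 0.0914%, and CCCG runs, at 0.265% against 0.11%. Dinucleotide AC runs were at 2.52% of summits against 4.14% of flanks, AG runs at 0.850% against 1.76%, and A runs at 1.67% against 2.64%. The length of the AAC run went with the presence of a peak. A summit lay within 100 bp of 0.536% of 40318 genomic runs of 12 to 17 bp outside promoters, of 1.53% at 18 to 23 bp, and of 6.24% at 24 to 35 bp. The share was 25.7% of 1551 runs of 36 to 47 bp, 49.6% of 238 runs of 48 to 59 bp (43.3 to 55.9), and 7 of 10 runs of 60 bp or more. Runs close together share a summit. AC runs had a summit at 0.0614% to 0.187% over the same lengths.

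**Figure D2:**
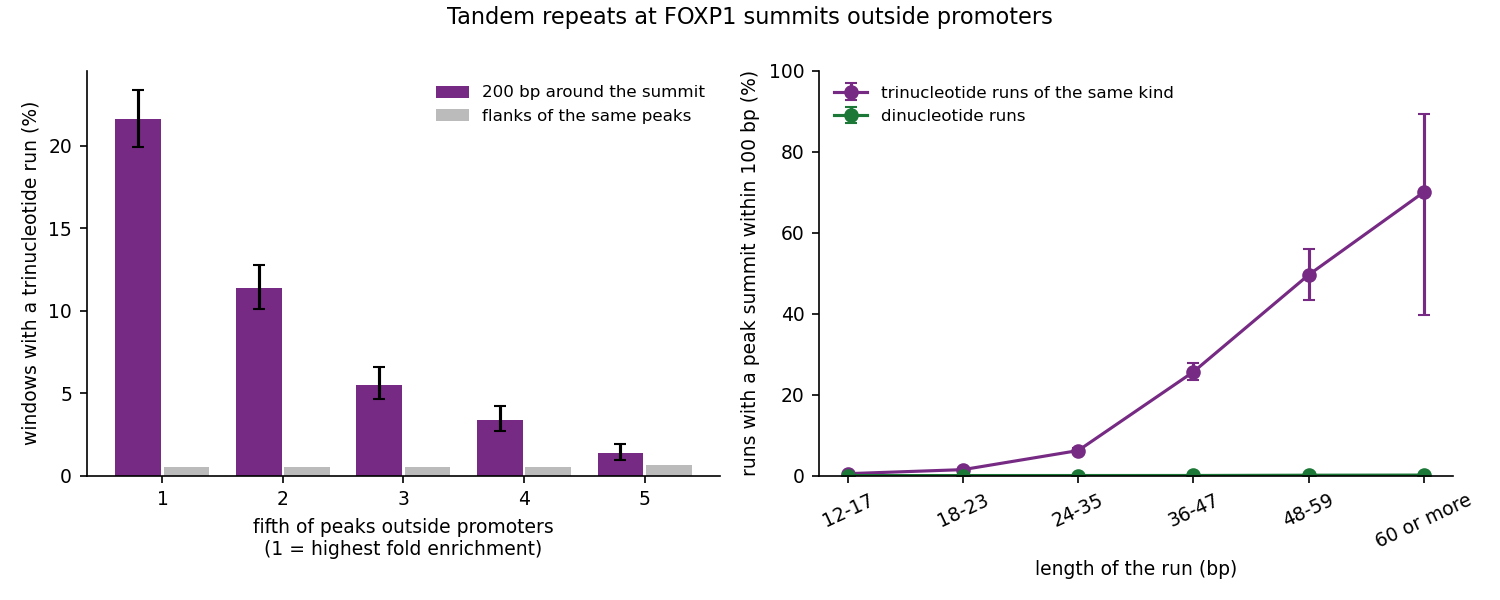
Left, share (%) of 200 bp windows with an AAC or GTT run at summits outside promoters (purple, Wilson intervals) and in their flanks (grey), in 5 equal groups by fold enrichment. Right, share (%) of genomic runs with a peak summit within 100 bp, by length of the run in bp, for AAC (purple) and AC (green) runs. The purple bars drop from 21.6% to 1.37%, and the purple line climbs to 70.0% of 10 runs while the green one stays under 1%.

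In the FOXP1 list at E15.5 the same runs were at 0.886% of summits outside promoters (0.803 to 0.978), against 0.493% of flanks. That was 391 of 44145 summits, against 947 of 10939 at E18.5. The E15.5 list was longer and its median fold was lower (4.05 against 5.71), so the shares are not like for like. AAC runs were at 0.199% and 0.159% of ARID1B summits and at 0.115% and 0.0952% of TCF4 summits, below flanks of 0.440% to 0.507%. Of the 7 peaks with a run among the strongest 25, 6 had a peak in every ARID1B and TCF4 list, with folds from 3.61 upward, and the Slitrk1 peak had none. The share of all peaks that overlapped every one of those lists was not computed. At soft-masked bases, where the assembly marks repeats, lay 72.0% of the summits with an AAC run, against 14.9% of intronic and 16% of intergenic summits as a whole. How well reads can be placed in such repeats was not tested.

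The forkhead heptamer TGTTTAC, searched on both strands, was at 3.38% of summits outside promoters (3.06 to 3.74), against 2.52% of their flanks (2.32 to 2.74) and 3.0% of tiles. It did not rise with strength, with 3.38%, 3.29%, 3.79%, 3.20% and 3.25% in 5 equal groups from strong to weak. At promoter summits it was at 1.39%, below the flanks at 2.09%. The other forkhead-like letters were rarer at summits than in flanks. Outside promoters TATTTGT was at 2.74% against 4.42% (tiles 5.9%) and TATTTAT at 3.52% against 6.29% (tiles 8.95%).

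Several other motifs were more frequent at summits outside promoters than in flanks. CACNAGNGG, part of the motif of the insulator protein CTCF, was at 7.17% against 2.13%, and at 1.85% of tiles. GTTGCCATG, the letters of RFX factors, was at 1.23% against 0.219%, and at 0.201% of tiles. The NFI letters TTGGCA were at 17.6% against 10.3%, and the POU octamer ATTTGCAT at 2.18% against 1.33%. E-box letters known from proneural factors were at 15.1% against 9.66% (CAGCTG) and 23.3% against 15% (CATCTG). Promoter summits were rich in the letters of general promoter factors. GGGGCGGGG (SP and KLF) was at 14.3% against 3.40%, GCGCANGCG (NRF1) at 9.41% against 0.979%, and GCCAATC (NFY) at 6.25% against 1.31%. CCGGAAGT (ETS) was at 5.12% against 0.434%, TGACGTCA (CRE) at 2.05% against 0.254% and AAGATGGCG (YY1) at 2.04% against 0.239%. In promoter tiles these 6 were at 1.21%, 0.445%, 1.55%, 0.321%, 0.192% and 0.207% in that order. In tiles outside promoters TTGGCA was at 9.85%, ATTTGCAT at 1.73%, CAGCTG at 7.26% and CATCTG at 15.08%. The remaining letters searched gave lower shares at summits outside promoters than in flanks for TGAGTCA (AP-1, 2.82% against 3.07%, tiles 3.13%), AGGTGTGA (T-box, 0.594% against 0.905%, tiles 0.776%), CCATTGT (SOX, 2.45% against 2.53%, tiles 3.52%) and TAATTA (homeobox, 4.95% against 5.79%, tiles 7.24%). CTAAAAATA (MEF2) was at 0.549% against 0.434% (tiles 0.514%) and ACTACAATT (ZNF143) at 0.128% against 0.105% (tiles 0.146%). Some of these letters overlap, as TTGGCA and GCCAATC do in part, and GC content of summits and flanks differs.

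**Figure D3:**
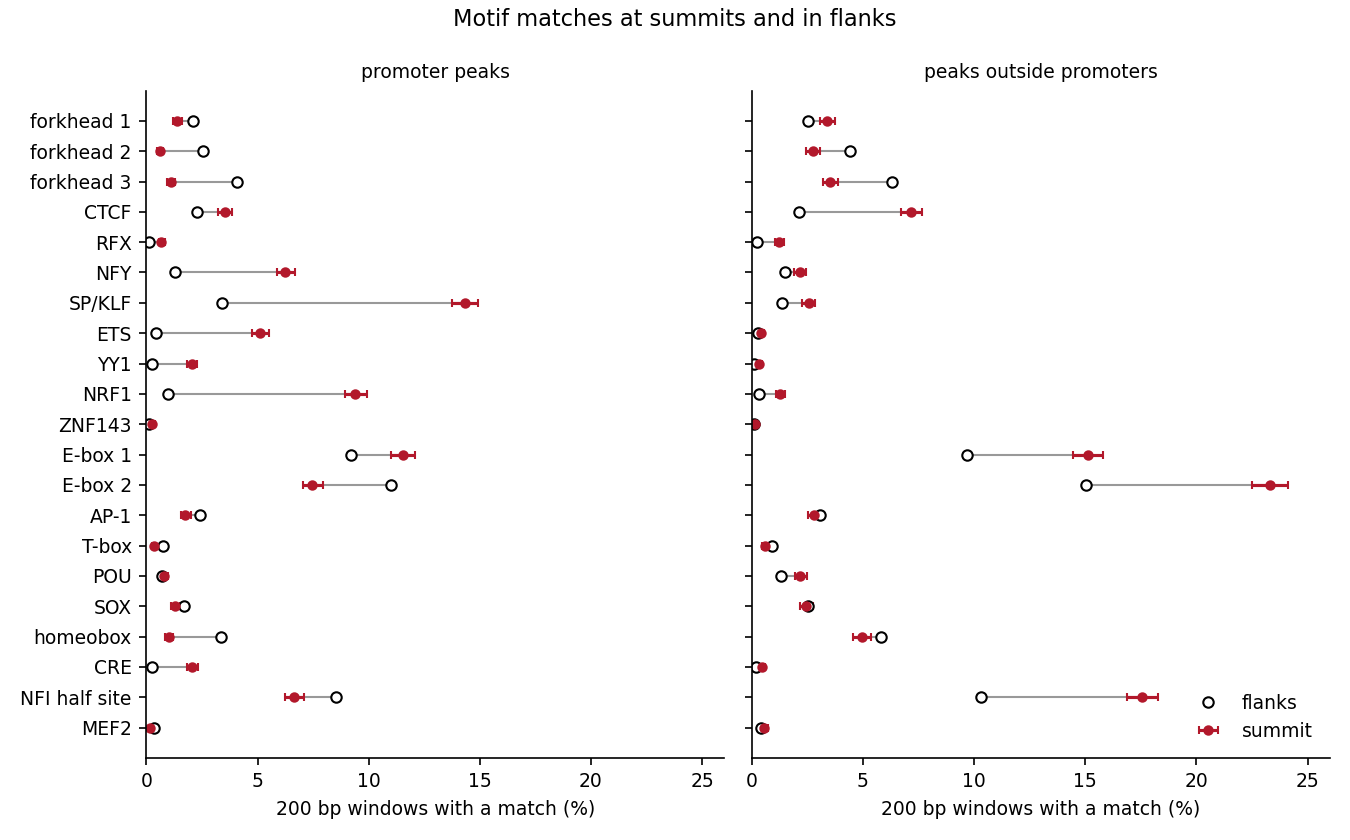
Share (%) of 200 bp windows with an exact match on either strand at summits (red, Wilson intervals) and in flanks of the same peaks (open circles), for promoter peaks and peaks outside promoters. Numbered rows are motifs of 1 family in the order given in the text, so that the first forkhead row is TGTTTAC and the first E-box row is CAGCTG. At promoters the widest gaps are at the SP and KLF, NRF1 and NFY letters, and outside promoters at the E-box, NFI and CTCF letters.

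Peaks over Foxp2, the gene of a paralogue of FOXP1, had an arrangement that no other gene showed to this extent. Of its 17 peaks, 15 had their summit inside the gene, 14 of them in exons, although exons are 3.02% of the gene. A peak covered 16 of the 18 coding exons in full, and in 14 of those the summit was inside the exon. The folds at these exons ran from 11.7 to 32.3 with a median of 20.8, from 78 to 218 reads. The summit was a median of 23.5 bp from the middle of the exon, and the exons were 70 to 249 bp long. Peak edges lay a median of 156 bp beyond the exon (quartiles 153 and 159). Reads were 50 bp long and were extended to 200 bp, so the extension of a read that ends at an exon's edge reaches 150 bp beyond it. The 2 coding exons without a peak were the third (75 bp) and the fifth (30 bp). Peaks at the start of the gene were weaker, at 8.80 and 3.79. A peak of 26.2, classed as promoter, lay over the first coding exon, where an alternative start site is annotated.

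**Figure D4:**
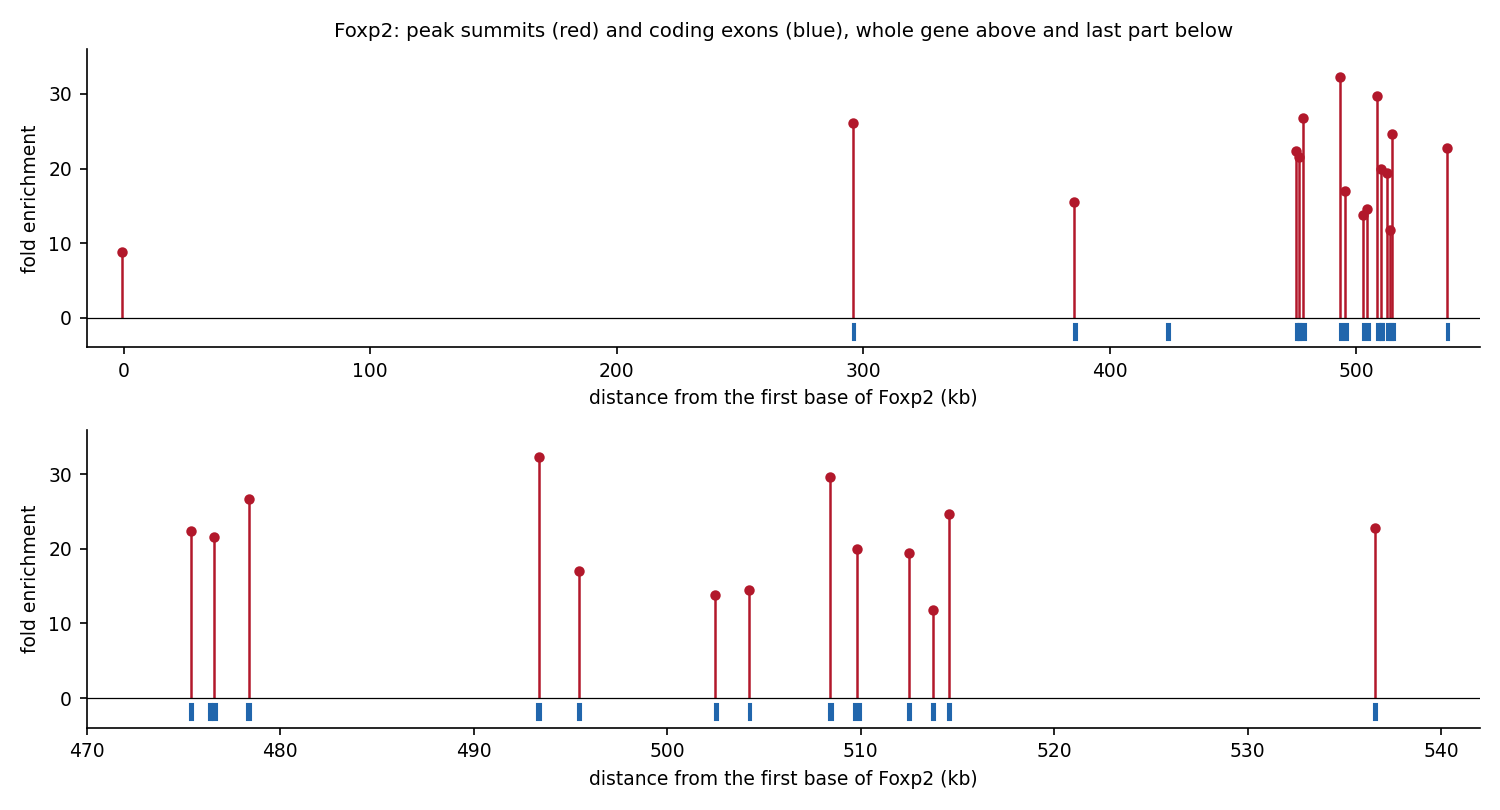
Fold enrichment of FOXP1 peaks (red, y axis) along Foxp2 by distance from its first base in kb (x axis), with coding exons as blue boxes drawn with a minimum width, for the whole gene above and its last part below. Red peaks stand over 16 of the 18 coding exons, with folds of 11.7 to 32.3.

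At Foxp1 itself none of 17 coding exons had a peak, and its strongest of 11 peaks was at a promoter with a fold of 13.1 (10.5 to 16.1, from 87 reads). At Foxp4, 2 of 16 coding exons had one (fold 5.41), and the strongest of its 10 peaks had 8.65. In the other lists, coding exons of Foxp2 had no peak in FOXP1 at E15.5 or in either TCF4 list. In the ARID1B lists 4 of them had a peak at E15.5 (3.39 to 8.46) and 2 at E18.5 (3.65 to 5.05). In the list as a whole 457 genes had summits in at least 2 of their exons, 37 in at least 3, and 2 in at least 5. The second of those was Dixdc1, a Wnt pathway gene, where 7 of 22 coding exons had a peak with folds of 6.30 to 14.5. Of 34 exonic peaks with a fold of at least 10, 11 were in Foxp2. Whether DNA that holds the Foxp2 exons without introns added to the reads was not tested.

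Of the 25 strongest peaks, all 21 that were not at Foxp2 had a peak in the FOXP1 list at E15.5, with folds of 6.20 to 49.2, and none of the 4 at Foxp2 did. ARID1B lists overlapped 21 and 20 of the 25, and TCF4 lists 18 and 19.

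The densest region was around Cwc22 on chromosome 2. Cwc22 was the nearest coding gene of 91 peaks (12 at promoters, 29 in introns, 50 between genes) from 77869694 to 78195399, a span of 326 kb. That is 279 peaks per Mb against 10.2 over all analysed chromosomes. Their folds ran from 3.65 to 35.4 with a median of 5.27. The other lists had 25 to 108 peaks there. The segment is known to vary in copy number among mouse strains, and copy number in these animals was not tested.

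Leaving Cwc22 aside, Pou3f3 and Zfp608 were the genes nearest to most peaks outside promoters. Pou3f3, a transcription factor of upper-layer neurons, had 21, of which the highest had a fold of 7.91. Zfp608 also had 21, Gse1 20, Auts2 19, Ttc28 18, and Celf2 and Dab1 17 each. Dab1 encodes the adaptor of Reelin signalling, and Auts2 a Polycomb-associated gene linked to neurodevelopmental disorders. Sorl1, a sorting receptor, had 16 and no promoter peak. Mef2c, a transcription factor of neurons and muscle, had 15 with a highest fold of 14.5. In all 54 genes had at least 10 such peaks, and gene length was not taken into account.

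Counts of genes with a promoter peak in each list are read against the background of 56.7%. They depended on weak peaks in many lists, since with a −log10 p of at least 15 the background was 43.7% and 11 of the 22 lists above the background came to lie below it. In the lists of this paragraph that minimum left 8 of 15 upper-layer, 6 of 15 deep-layer and 4 of 17 radial glia genes. It left 4 of 12 intermediate progenitor and 0 of 12 subplate and Cajal-Retzius genes. Only the upper-layer list stayed above, at 53.3%, and the deep-layer list came just below, at 40%. That contrast rests on few genes and was not tested. With all peaks, 14 of 15 upper-layer genes had a promoter peak, with Pou3f3 at 10.1, the LIM-only gene Lmo4 at 9.53 and Cux2 at 8.5, and Pou3f1 as the exception. Of the deep-layer list 13 of 15 did. Foxp2 had 26.2 at the peak over its first coding exon and 8.80 at the start of the gene. Foxp1 had 13.1, the ETS factor gene Etv1 11.9 and the corepressor gene Tle4 11.7, while Crym and Fezf2, a determinant of subcerebral neurons, had none. Radial glia genes were bound in 15 of 17 cases (Id4 9.68, Mki67 8.21, Lhx2 7.77). Intermediate progenitor and proneural genes were bound in 9 of 12, with Btg2 at 8.65 and Neurod2 at 7.03 but none at Eomes or Neurog1. Subplate and Cajal-Retzius genes had 9 of 12, with Reln, the secreted cue of layer formation, at 6.15.

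In the lists of other cell types the shares were below the background of 56.7%, and no difference from the lists above was tested. With a −log10 p of at least 15 the counts were 4 of 18 striatal, 2 of 20 interneuron, 1 of 12 glial precursor, 1 of 12 endothelial, 0 of 12 microglial and 1 of 14 muscle genes, shares that overlap those of the radial glia and subplate lists at that minimum. With all peaks, striatal projection neuron genes had 7 of 18, with Drd1 (59.1), Meis2 (7.33) and Rgs9 (7.18), and none at Drd2, Penk or Tac1. Interneuron genes had 7 of 20, and none at Gad2, Lhx6 or Sst. Glial precursor genes had 4 of 12, with Nfia at 6.88 and Sox9 at 6.30 and none at Olig1, Olig2 or Sox10. Endothelial and microglial lists had 1 of 12 each (Egfl7 8.21 in the endothelial list), muscle genes 3 of 14, and erythroid and liver genes 0 of 12 and 0 of 14. The median CpG ratio of promoters differed between some of these lists too, at 0.756 for upper-layer, 0.783 for radial glia, 0.275 for microglial and 0.175 for erythroid genes. The ratio was 0.761 for interneuron and 0.714 for striatal genes, close to that of the upper-layer list, although both had shares below the background. Its part in these counts was not tested.

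**Figure D5:**
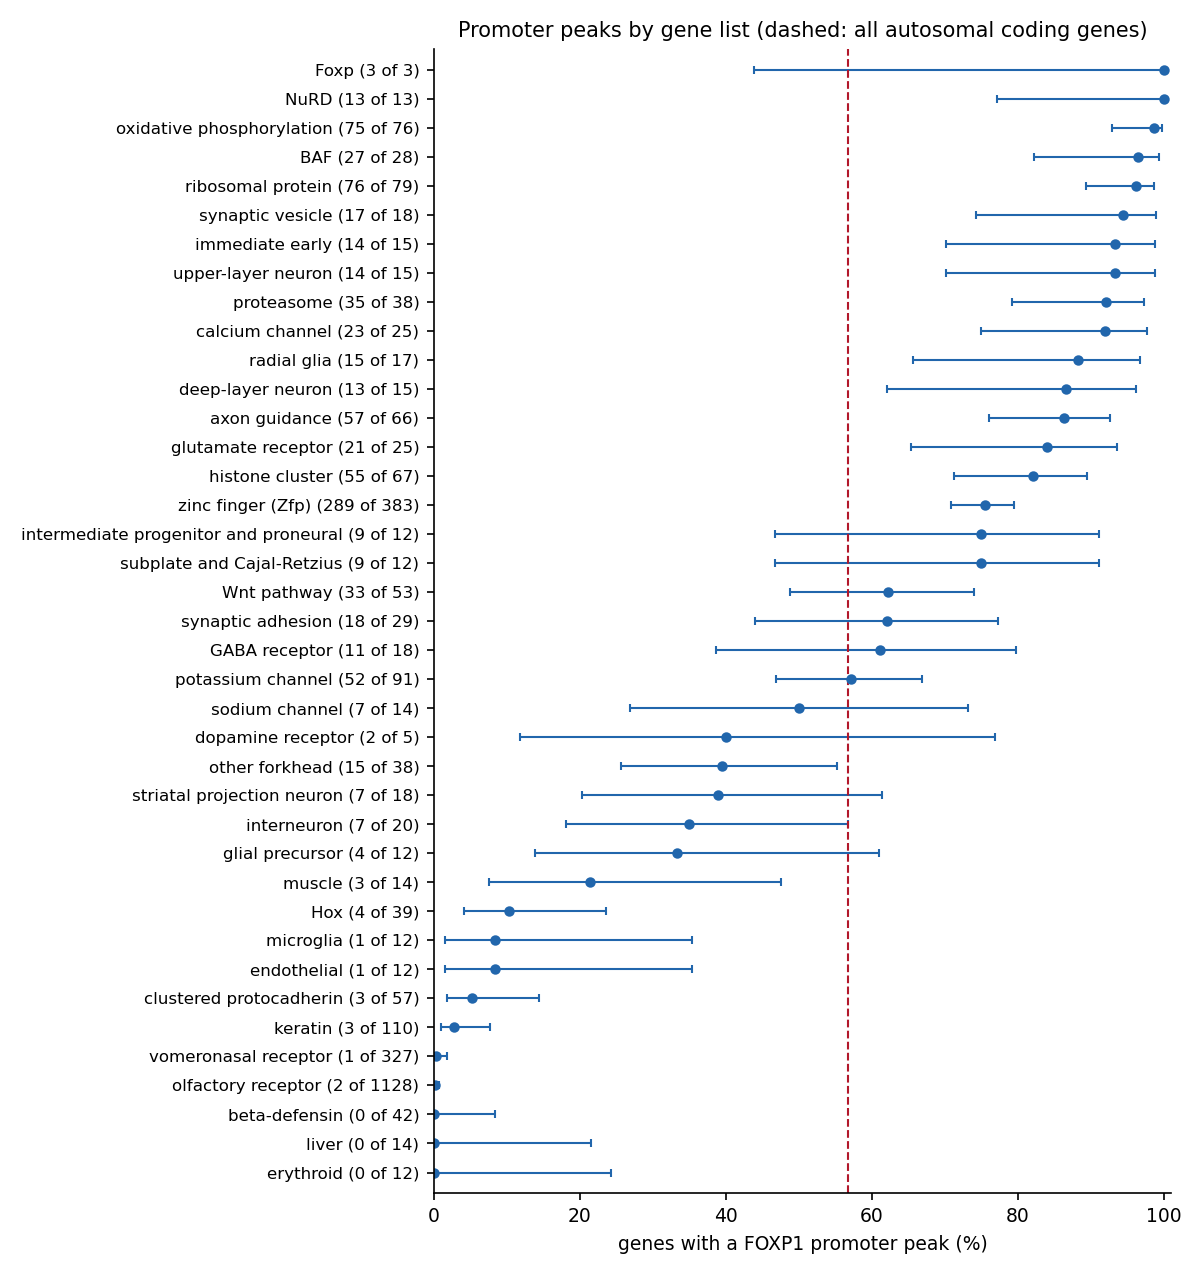
Share (%) of genes with a FOXP1 promoter peak in each of 39 gene lists (points with 95% Wilson intervals, counts in the row names), with the share over all autosomal coding genes as a dashed line. NuRD (13 of 13), oxidative phosphorylation (75 of 76) and BAF (27 of 28) genes are near the top, and olfactory receptor genes (2 of 1128) near the bottom.

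All 13 NuRD genes had a promoter peak, led by the methyl-CpG-binding subunit gene Mbd3 (17.5), Gatad2a (15) and Gatad2b (12.8). Of the BAF remodelling complex, 27 of 28 did, with the ATPase gene Smarca4 at 14.5 and Smarcc1 at 13.5, and not Phf10. The median promoter CpG ratio was 0.905 in the NuRD list and 0.904 in the BAF list. Among all coding genes with a ratio over 0.9 the share with a peak was 96.5%, and these counts are near that share. Some members had lower ratios, such as the BAF gene Actl6b (0.61). Over all coding genes the share was 79.4% at ratios of 0.6 to 0.7 and 94% at 0.8 to 0.9. No comparison matched gene by gene was made. Of the other forkhead genes 15 of 38 had a promoter peak, with Foxa3 and Foxo3 at 14.2 and Foxj3 at 12.5. Ribosomal protein genes had 76 of 79, oxidative phosphorylation genes 75 of 76 and proteasome genes 35 of 38.

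Among neuronal signalling genes the counts varied by family. With the stronger peaks alone, 6 families above the background, most of them close to it, came to lie below the background of 43.7%. That minimum left 10 of 25 calcium channel, 3 of 25 glutamate receptor, 3 of 18 GABA receptor, 17 of 91 potassium channel, 5 of 29 synaptic adhesion and 17 of 53 Wnt pathway genes. Axon guidance (37 of 66), synaptic vesicle (11 of 18) and immediate early genes (11 of 15) stayed above it. With all peaks, the intervals of potassium channel (57.1%), GABA receptor (61.1%), synaptic adhesion (62.1%) and Wnt pathway genes (62.3%) included the background share. Those of calcium channel (92%) and glutamate receptor genes (84%) lay above it. The counts with all peaks were as follows. Calcium channel genes had 23 of 25, led by Cacna1b, the N-type channel of nerve terminals (14.5). Glutamate receptors had 21 of 25, with the AMPA receptor gene Gria2 at 9.39, the kainate receptor gene Grik4 at 8.06 and the NMDA receptor gene Grin1 at 7.47. GABA receptors had 11 of 18 (Gabbr1 10.1), potassium channels 52 of 91 (Kcnn1 18.2) and sodium channels 7 of 14. The sodium channel gene Scn2a, of axon initial segments, had a fold of 21.7. Of the 5 dopamine receptor genes only Drd1 and Drd4 (4.68) had a promoter peak. Synaptic vesicle genes had 17 of 18, with Rab3a at 11.7 and Vamp2 at 11.6. Synaptic adhesion genes had 18 of 29 (Nlgn2 12.8). Axon guidance genes had 57 of 66, led by the ephrin Efnb2 (11.9) and its receptor Ephb3 (10.6). Wnt pathway genes had 33 of 53, with Dvl2 at 27.3, the coreceptor gene Lrp6 at 14.4 and the beta-catenin gene Ctnnb1 at 13.8. Immediate early genes had 14 of 15, with Egr1 at 10.4 and Nr4a3 at 10.3, and Bdnf was the exception.

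Large clustered families were at the other end. Olfactory receptors had 2 of 1128, vomeronasal receptors 1 of 327, keratins 3 of 110, beta-defensins 0 of 42, clustered protocadherins 3 of 57 and Hox genes 4 of 39. Histone cluster genes, with 55 of 67, and zinc finger genes of the Zfp series, with 289 of 383, were clustered or repeated families above the background. With the stronger peaks alone they had 29 of 67, just below it, and 212 of 383. How the removal of reads with a low mapping quality affected families with near-identical copies was not tested.

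The weakest peaks in the list were at or nearest to Ptger4 (3.21, from 20 reads), and Gper1, Scml4, Rnf150 and Pofut2 (3.35, from 21 reads each).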

How the data were processed

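FOXP1 ChIP and input libraries were sequenced from wild-type cortex at E18.5. The submitters' processing notes name BWA 0.7.15, SAMtools, deepTools 3.4.3 and MACS2 2.2.7. According to the methods, 50 bp single reads were aligned to the mouse genome, alignments of low mapping quality were removed, replicates were merged, and MACS2 was run with local background testing switched off and an extension of 200 bp. The treatment of duplicate reads is not stated in those sources. The deposited peak list holds, per peak, a fold enrichment ratio over background, a −log10 p-value, a −log10 q-value and a score derived from the q-value, all made by the authors with MACS2. The score was not used.

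Positions were compared with GRCm38 and GENCODE vM21 (the methods name release 23 for the genome annotation). Reads at summits and library sizes were recovered from the pairs of fold enrichment and p-value under the Poisson model of MACS2. Depth was thus about 46.9 M ChIP reads, and the lowest summit had 20. Peak classes, nearest coding start sites, CpG ratios, exact motif matches and tandem repeats were computed with Python 3.11.15, numpy 2.4.6, pandas 2.3.3 and scipy 1.17.1, and plotted with matplotlib 3.10.9, after the motif, repeat and depth steps were tested on simulated data. Named genes are those at the 25 strongest peaks, the 15 strongest intronic and intergenic and 5 strongest exonic peaks, the 15 genes with most peaks outside promoters, the Foxp genes, the 5 weakest peaks and members of 39 gene lists.

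The list and the gene lists were chosen with earlier results of these data known. The descriptions of exons, tandem repeats, CACGTG and the Cwc22 region, the choice of printed sequences (such as the Dock2 peak), and the naming of Dixdc1 came after the values had been seen. Some genes that the rule would name are not reported here. No test over samples was possible, and no p-value is given. The classes, gene counts and TGTTTAC share were recomputed with stronger peaks only and with other promoter rules.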

Additional observations from a re-analysis of the deposited data

Results flagged for a closer look

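Peaks outside chromosomes 1 to 19 were left out of the report, and the deposited list held some on each remaining kind of sequence. Input reads on these sequences were not analysed here. The X chromosome had 338 peaks with folds of 3.65 to 11.2 and a median of 5.27. The Y chromosome had 6, with folds of 4.24 to 8.5, and unplaced sequences had 18, with folds of 3.94 to 14.8. The mitochondrial sequence M had 2, both with a fold of 59.1, the same value as the Drd1 peak.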

How the results depend on the processing

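A minimum −log10 p of 15 left 9927 peaks, with promoter, exon, intron and intergenic shares of 85.8%, 1.49%, 5.58% and 7.09% and median folds of 9.39 at promoters and 7.62 outside. With promoters of 1000 bp upstream the shares were 52.8%, 4.66%, 21.7% and 20.8% and the promoter fold 7.91. With 500 bp either side of a start site, the promoter, exon and intergenic shares were 54.4%, 3.40% and 21.6%. Requiring the summit in the promoter gave 45.9% promoter, 12% exon and 22.0% intron, folds of 7.91 and 4.97, and TGTTTAC at 2.97% outside promoters. With coding start sites only, the shares were 48.6%, 6.61%, 23.2% and 21.5% and the promoter fold 8.06. Leaving out soft-masked summits gave 57.9% promoter, 19.2% intron and 18.47% intergenic. TGTTTAC in 100 bp windows was at 1.80%. The causes were not tested. The number of coding genes with a promoter peak stayed within 1.5 times of 11789 in all settings run. Of the 39 gene lists, counts moved by more than that in 24 with the stronger peaks, 1 with 1000 bp, 3 with 500 bp either side, 5 with the summit rule, 1 with coding start sites and 2 without soft-masked summits. With the stronger peaks, 11 lists went from above to below the background, which was then 43.7%, and none went the other way. No paired analysis was possible because the libraries were merged before peak calling, and for the same reason no replicate could be left out. Fewer than 20 reads at a summit never gave a peak, so weaker binding was not detectable at this depth.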
